A study of Mus musculus with 16 samples.

Results

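Subcapsular sinus macrophages (SSMs) and medullary sinus macrophages (MSMs) of tumor-draining lymph nodes (tdLN) were compared gene by gene. The comparison rests on 8 of the 16 sequenced samples of the series, which are 4 of its 8 libraries, each sequenced on 2 lanes. Members were taken by their labels alone, as the CD11c- (SSM) and CD11c+ (MSM) libraries made from tdLN, with the lanes of a library summed, so that each side has 2 libraries. All animals were male C57B/6 mice that carried MOC2 tumors, a chemically induced squamous cell carcinoma model, and both sides of the comparison therefore come from tumor-bearing mice. Tumors were started by intradermal injection of 500000 cells into the flank, close to the inguinal node, and nodes were taken at 2 weeks. The tdLN of 2 mice (2 nodes) were combined into a pool, pools 1 and 2 were sorted separately, and about 10000 cells were recovered for each group. Both subsets were sorted as live (7AAD-) CD45+ CD3- B220- Ly6G- CD11b+ CD169+ cells, the SSMs as CD11c- with low side scatter and the MSMs as CD11c+ with high side scatter. The SSM and MSM libraries with the same number come from the same pooled nodes, so n = 2 paired pools. The p-values rest on the spread between such pools of 2 mice, estimated over all 8 libraries of the series and not from the tdLN pools alone. The non-draining nodes (ndLN) of the same animals, 6 to a pool from contralateral inguinal, axillary and brachial sites, were sorted in the same way. Their libraries take part in the normalization, the estimate of spread and the mean count behind every tdLN result. Their levels are described at the end, where the subset difference is compared between node types.

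SSMs line the floor of the subcapsular sinus, where afferent lymph enters the node, and they are known for capturing lymph-borne particles and antigen and for passing them to B cells. They are regarded as weakly phagocytic and weakly degradative. MSMs lie in the medullary sinuses and cords and are known for phagocytosis, lysosomal degradation and the clearance of dying cells. Both express CD169, the sialic acid-binding lectin encoded by Siglec1, and both depend on the growth factor receptor encoded by Csf1r.

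The 4 libraries held between 43018644 and 48130352 counts on genes. In SSMs 9.46% and 10.2% of the counts fell on the 10 genes with the highest counts, against 14.1% and 15.7% in MSMs. Counts of lanes 3 and 4 from 1 library agreed within sampling noise, with a chi-square per degree of freedom between 0.955 and 1.02, and the lanes are therefore not replicates. Levels are given as CPM, counts scaled to the library total, after TMM normalization, in the order pool 1 and pool 2. Fold changes are log2 values of SSMs minus MSMs ± the standard error of the fit, and adjusted p-values come from edgeR's quasi-likelihood test with pool in the model and Benjamini-Hochberg adjustment over all 21085 genes tested. A gene is called when its adjusted p lies under 0.01 and its normalized counts average over 100 in a lane, which corresponds to 4.41 CPM over the 8 libraries.

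SSMs and MSMs of tdLN differed at 1833 genes, 8.69% of the 21085 tested. Only the 9996 genes over the mean count could be called, and the 1833 are 18.3% of these. Counts for the lists below are out of all tested members, whatever their mean count. SSMs had the higher level at 1089 of them (5.16%) and MSMs at the other 744 (3.53%). The genes higher in SSMs also differed by more. The median log2 fold change was 2.202 among the genes higher in SSMs and -1.76 among those higher in MSMs, and 164 genes exceeded a log2 fold change of 5 in the first direction against 34 in the second. Among all genes tested the median was 0.02. The values of the 2 SSM libraries did not overlap those of the 2 MSM libraries at 1825 of the 1833 genes, and the same was true of 56.6% of all genes tested. Leaving out any 1 of the 4 libraries, with the lone remaining library assumed to vary like the other groups, lowered the number of genes called to between 507 (without MSM pool 2) and 719 (without MSM pool 1). For this reason each list of genes below is given with the number of its members that were called in all 4 of these smaller fits.

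**Figure D1:**
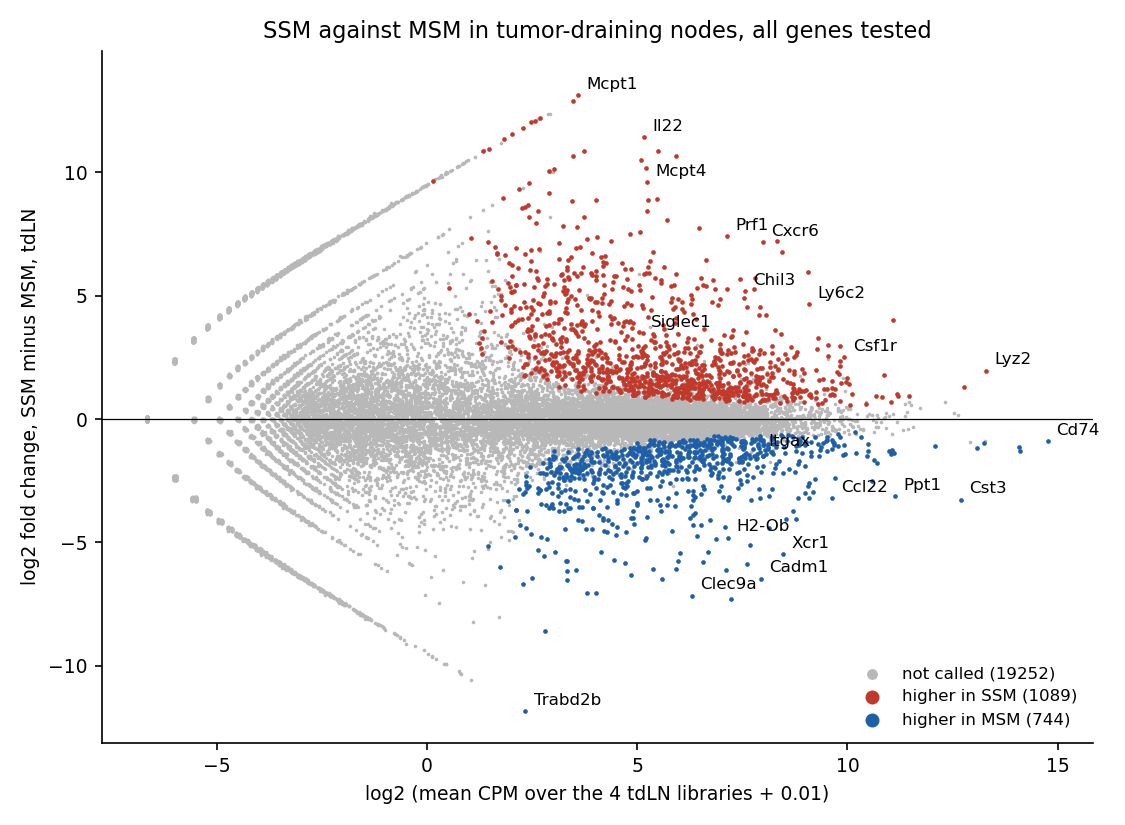
Log2 fold change of SSMs over MSMs in tdLN (vertical axis, fitted values) against the log2 mean level over the 4 tdLN libraries in CPM plus 0.01 (horizontal axis), 1 point for each of the 21085 genes tested. Red points are the 1089 genes higher in SSMs and blue points the 744 genes higher in MSMs. The red points reach further from 0, and the arms at the left are genes without a count in 1 of the groups.

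The genes of the sort gate were read first, as a check of the labels. Itgax, which encodes CD11c, measured 149 and 125 CPM in SSMs and 385 and 316 CPM in MSMs (log2 fold change -1.35 ± 0.18, adjusted p = 0.00196), and its direction is that of the gate. Siglec1, which encodes the CD169 used to select both subsets, measured 70 and 59.2 CPM in SSMs and 5.96 and 5.64 CPM in MSMs (log2 fold change 3.47 ± 0.29, adjusted p = 0.000275). Siglec1 was low in both MSM libraries, above the floor of 3 counts but about 10 times below the SSM libraries. Itgam, which encodes CD11b and was also required of both subsets, measured 124 and 90.2 CPM in SSMs and 20.4 and 13.7 CPM in MSMs (log2 fold change 2.66 ± 0.20, adjusted p = 0.000195). Of the Itgam exon length, 68.7% lies inside a second gene model on the same strand, so that its level depends on how such reads were counted. Csf1r measured 1887 and 1408 CPM in SSMs and 405 and 194 CPM in MSMs (log2 fold change 2.51 ± 0.23, adjusted p = 0.00039). The pan-leukocyte gene Ptprc, which encodes CD45, measured 2590.1 and 2099.5 CPM against 1368 and 1149 CPM in SSMs and MSMs (log2 fold change 0.90 ± 0.11, adjusted p = 0.00141). Genes of the negative gate were read as well. The genes of the CD3 chains were higher in SSMs, with Cd3e at 75 and 84.3 CPM against 3.05 and 2.14 CPM (log2 fold change 4.95 ± 0.25, adjusted p = 6.15e-05), and the neutrophil gene Ly6g was at 0.628 and 0 CPM in SSMs and at 0 in both MSM libraries.

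At the RNA level the markers thus follow the SSM and MSM labels for CD11c, whereas the low Siglec1 RNA of the MSM libraries stands against the CD169+ label. The gate read surface protein, which these counts do not measure. All 10 genes of the list for type 1 conventional dendritic cells (cDC1) were called higher in the MSM libraries, and most genes of the lists for T cells, innate-like lymphocytes and monocytes were called higher in the SSM libraries, as were 9 of 16 genes of mast cells and basophils. SSM and MSM below stand for the sort gates. These are bulk samples, in which fewer cells of a type cannot be told apart from less RNA per cell, and the part of other cell types in the differences below was not tested.

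**Figure D2:**
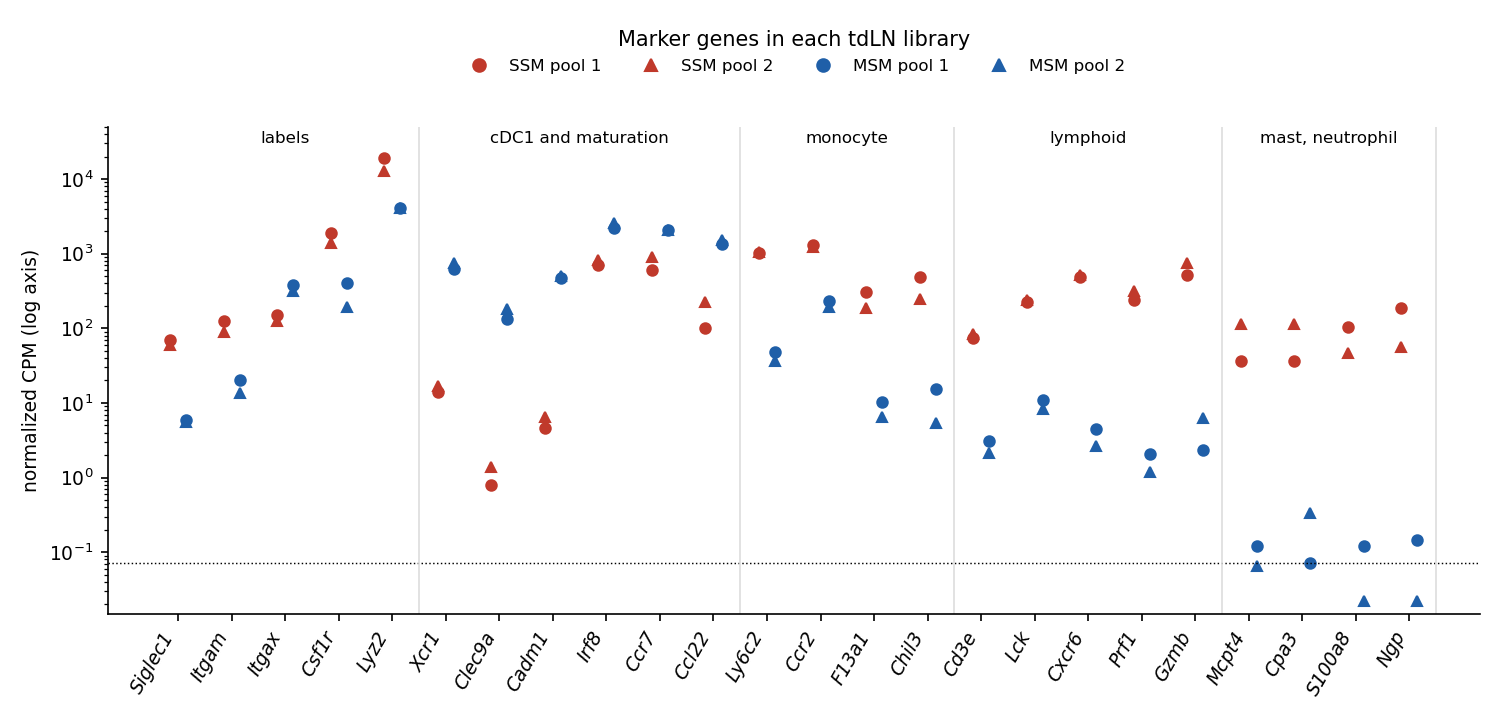
Level of 24 marker genes in each of the 4 tdLN libraries in normalized CPM (log axis), with SSMs in red, MSMs in blue, pool 1 as circles and pool 2 as triangles. The dotted line marks the floor of 3 counts. For every gene shown the SSM and MSM points are separate, with Siglec1, Csf1r, monocyte, lymphoid, mast cell and neutrophil genes higher in SSMs, and Itgax, cDC1 and maturation genes higher in MSMs. The groups were separate at 56.6% of all genes tested. The genes were picked for this figure, and members of the same lists that went the other way (Cd8a, Kit) or were not called are not shown.

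Genes of macrophage identity that were called were all higher in SSMs. Of the 12 listed, 6 were called higher in SSMs and 0 higher in MSMs (2 in all 4 fits with a library left out), and the median log2 fold change was 1.77. Maf, a transcription factor of macrophages, measured 37.4 and 42.5 CPM in SSMs and 2.4 and 2.42 CPM in MSMs (log2 fold change 4.05 ± 0.48, adjusted p = 0.00116). The same gene is also counted in the list for innate-like lymphocytes below. Lyz2, which encodes lysozyme, measured 19309 and 12932 CPM in SSMs and 4097 and 4042 CPM in MSMs (log2 fold change 1.96 ± 0.21, adjusted p = 0.00079). Cd14, a co-receptor for lipopolysaccharide, measured 1744 and 980.1 CPM against 417 and 289 CPM (log2 fold change 1.92 ± 0.17, adjusted p = 0.000352). The genes of complement C1q, Cd68, Mertk and Adgre1, the gene of F4/80, did not pass the test, with log2 fold changes between 0.61 and 1.62. The summed level of the list was 25520 and 17480 CPM in the SSM libraries and 5803 and 5243 CPM in the MSM libraries.

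Genes of lymph node sinus macrophages were divided. Of the 11 tested, 3 were called higher in SSMs and 1 higher in MSMs (1 in all 4 smaller fits), with a median log2 fold change of 0.65. Besides Siglec1, they were Spic, a factor of heme-handling macrophages (148 and 135 CPM against 50.6 and 45.7 CPM in SSMs and MSMs), and Nr1h3, which encodes the nuclear receptor LXRα (82.9 and 60.4 CPM against 27.4 and 20.1 CPM). Tnfrsf11a, which encodes the receptor RANK, was higher in MSMs (71.6 and 76.5 CPM against 33 and 35.7 CPM, log2 fold change -1.11 ± 0.19, adjusted p = 0.00643). Marco and Cd209b, genes associated with medullary macrophages, measured 11.7 and 7.45 CPM against 7.9 and 4.38 CPM and 54.5 and 45.2 CPM against 36.6 and 49.8 CPM in SSMs and MSMs, and neither passed the test.

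Dendritic cell genes set the MSM libraries apart. All 10 genes of the cDC1 list were called higher in MSMs (7 in all 4 smaller fits), with a median log2 fold change of -4.04 and a summed level of 1404 and 1487 CPM in the SSM libraries and 7281 and 8720 CPM in the MSM libraries. Clec9a, a receptor for actin of dead cells, measured 0.807 and 1.38 CPM in SSMs and 132 and 179 CPM in MSMs (log2 fold change -7.15 ± 0.34, adjusted p = 4.76e-05). Xcr1, the chemokine receptor that marks cDC1, measured 14.2 and 16.8 CPM in SSMs and 630.4 and 752 CPM in MSMs (log2 fold change -5.48 ± 0.18, adjusted p = 2.30e-05). Cadm1, an adhesion molecule of the same cells, measured 4.66 and 6.4 CPM against 472 and 504 CPM (log2 fold change -6.46 ± 0.25, adjusted p = 2.71e-05). Gcsam measured 2.87 and 4.97 CPM against 250.3 and 296 CPM (log2 fold change -6.12 ± 0.34, adjusted p = 6.29e-05). The transcription factors Irf8 and Batf3, both needed for cDC1 development, differed by less, at 713 and 832 CPM against 2223 and 2599.5 CPM (log2 fold change -1.64) and 21.8 and 30.4 CPM against 87.2 and 105 CPM (log2 fold change -1.89). Zbtb46, a factor of conventional dendritic cells, was likewise higher in MSMs (179 and 178 CPM against 34.3 and 45.6 CPM, log2 fold change -2.17 ± 0.27, adjusted p = 0.0016).

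Genes of mature dendritic cells took the same direction. Of the 14 in the list, 10 were called higher in MSMs and 0 higher in SSMs (3 in all 4 smaller fits), with a median of -1.39. Il12b, which encodes the p40 subunit shared by interleukins 12 and 23, measured 43.7 and 80 CPM in SSMs and 866 and 683 CPM in MSMs (log2 fold change -3.74 ± 0.48, adjusted p = 0.00174). Ccl22, a ligand of the receptor CCR4, measured 101 and 223 CPM against 1332 and 1533 CPM (log2 fold change -3.21 ± 0.29, adjusted p = 0.000398). Ccl17, the other ligand of CCR4, measured 4.71 and 14.9 CPM against 85.6 and 135 CPM (log2 fold change -3.52 ± 0.43, adjusted p = 0.00137). Both genes were more than 2 times higher in SSM pool 2 than in SSM pool 1. Ccr7, the receptor that guides dendritic cells into nodes, measured 601 and 899.7 CPM against 2099.9 and 2064 CPM (log2 fold change -1.50 ± 0.19, adjusted p = 0.00152). Fscn1, an actin-bundling gene of mature dendritic cells, measured 172 and 395 CPM against 1335 and 1452 CPM (log2 fold change -2.39 ± 0.25, adjusted p = 0.000658). The costimulatory genes Cd86 and Cd40 were higher in MSMs, with log2 fold changes of -1.28 and -1.02, and Cd80 and Cd274 did not pass the test, at 91 and 88.4 CPM against 111 and 92.7 CPM and 224 and 263 CPM against 259 and 189.8 CPM.

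Of the 5 Langerhans cell genes, 3 were called higher in MSMs (1 in all 4 smaller fits). Cd207, which encodes langerin, measured 21.9 and 17.4 CPM against 0.336 and 0.39 CPM in MSMs and SSMs (log2 fold change -5.75 ± 0.70, adjusted p = 0.00124). Hepacam2 measured 207 and 168 CPM against 3.3 and 3.55 CPM (log2 fold change -5.77 ± 0.32, adjusted p = 6.29e-05). The list for type 2 conventional dendritic cells had 2 of 10 members called higher in SSMs and 0 higher in MSMs (1 in all 4 smaller fits). The 2 called members were Sirpa, the receptor for CD47, which macrophages also express (1297 and 1052 CPM against 504 and 316 CPM in SSMs and MSMs), and Dtx1, a regulator of Notch signaling (57.6 and 76.7 CPM against 4.75 and 1.23 CPM). Plasmacytoid dendritic cell genes were low in all libraries, with 2 of 10 called higher in MSMs, Ccr9 (log2 fold change -2.97, 20.1% of its windows shared) and Spib (log2 fold change -1.44), and neither in all 4 smaller fits.

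Monocyte genes were higher in SSMs almost throughout. Of 10 members, 9 were called higher in SSMs (5 in all 4 smaller fits), with a median of 3.97 and a summed level of 5789 and 5490 CPM in the SSM libraries and 2164 and 2158 CPM in the MSM libraries. Ly6c2, the surface marker of classical monocytes, measured 1023 and 1064 CPM in SSMs and 47.9 and 36.9 CPM in MSMs (log2 fold change 4.66 ± 0.45, adjusted p = 0.000497). Of its transcript windows of 50 bases, 14.4% also occur in other genes. Ccr2, the receptor that releases monocytes from bone marrow, measured 1289 and 1233 CPM against 233 and 195 CPM (log2 fold change 2.57 ± 0.13, adjusted p = 6.29e-05). F13a1, which encodes a subunit of coagulation factor XIII, measured 302 and 184 CPM against 10.4 and 6.45 CPM (log2 fold change 4.86 ± 0.33, adjusted p = 0.00012). Chil3, a chitinase-like gene of monocytes and alternatively activated macrophages, measured 483 and 249.8 CPM against 15.3 and 5.33 CPM (log2 fold change 5.17 ± 0.48, adjusted p = 0.000442), with 26.9% of its windows of 50 bases shared with other genes. Treml4 differed least among those called (144 and 91.2 CPM against 60.9 and 52.3 CPM, log2 fold change 1.03) and lost its call without the pool term, and Nr4a1 did not pass the test.

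**Figure D3:**
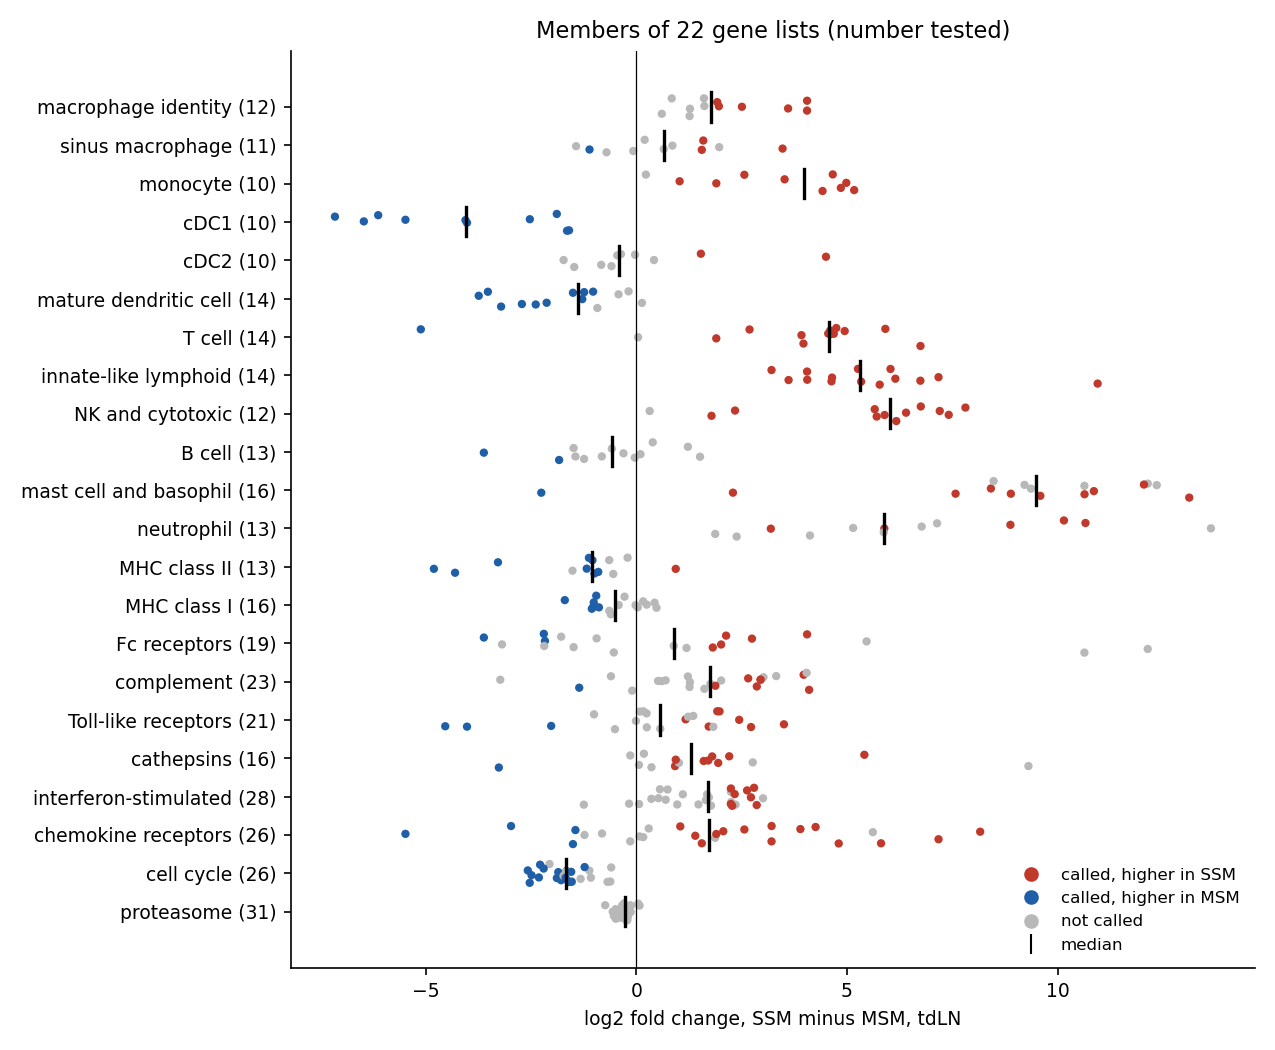
Log2 fold change of SSMs over MSMs in tdLN (horizontal axis) for each tested member of 22 gene lists (rows, with the number tested). Red and blue points are members called higher in SSMs and in MSMs, gray points were not called, and black bars are medians over the tested members. The cDC1 row lies wholly to the left of 0 and the innate-like lymphoid row wholly to the right, and the proteasome row stays close to 0.

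Most T cell genes were higher in SSMs although the gate removed CD3+ cells. The gate also removed B220+ cells, and of 13 B cell genes 0 were called higher in SSMs and 2 higher in MSMs. Of 14 T cell genes, 12 were called higher in SSMs and 1 higher in MSMs (12 in all 4 smaller fits), with a median of 4.58 and a summed level of 1506 and 1699 CPM in the SSM libraries and 539 and 579.8 CPM in the MSM libraries. Lck, the kinase of the T cell receptor complex, measured 227 and 239 CPM in SSMs and 10.9 and 8.23 CPM in MSMs (log2 fold change 4.60 ± 0.20, adjusted p = 3.47e-05). Icos, a costimulatory receptor, measured 417 and 509 CPM against 21.4 and 17.7 CPM (log2 fold change 4.55 ± 0.22, adjusted p = 4.76e-05). Cd40lg measured 75.9 and 88.1 CPM against 1.09 and 0.462 CPM (log2 fold change 6.74 ± 0.37, adjusted p = 6.73e-05). The exception was Cd8a, which cDC1 of lymph nodes also express, at 357 and 439 CPM against 10 and 13 CPM in MSMs and SSMs (log2 fold change -5.11 ± 0.29, adjusted p = 7.14e-05). Cd8b1, which encodes the partner chain of CD8 on T cells, had the opposite direction (13.7 and 16.3 CPM against 4.53 and 3.54 CPM in SSMs and MSMs, log2 fold change 1.90). Cd4 measured 91.7 and 59 CPM against 88 and 58.4 CPM and did not pass the test.

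Innate-like lymphocytes that produce interleukin 17 are known neighbors of SSMs in the subcapsular sinus. All 14 genes of the list for these cells were called higher in SSMs (8 in all 4 smaller fits), with a median of 5.30 and a summed level of 1328 and 1434 CPM in the SSM libraries and 50.8 and 42.9 CPM in the MSM libraries. Of these genes, Il17a and Zbtb16 were not called with the mean count taken over the tdLN libraries alone, nor with edgeR's legacy fit. Cxcr6, a homing receptor of such cells, measured 489.6 and 519 CPM in SSMs and 4.41 and 2.62 CPM in MSMs (log2 fold change 7.17 ± 0.25, adjusted p = 2.30e-05). Il7r, the interleukin 7 receptor, measured 268 and 311 CPM against 23.4 and 23.6 CPM (log2 fold change 3.61 ± 0.15, adjusted p = 3.47e-05). Ccr6 measured 39.5 and 55.1 CPM against 4.94 and 5.2 CPM (log2 fold change 3.21 ± 0.22, adjusted p = 0.00012). Il17a was at 6.79 and 4.22 CPM against 0 and 0 CPM and exceeded the MSM level at least 79.4-fold, the MSM libraries being set at the floor of 3 counts per library. The constant genes of both the αβ and the γδ T cell receptors had the same direction. Among T cell receptor genes, 7 of 8 constant genes, 6 of 87 variable genes and 2 of 34 joining genes were called higher in SSMs and none higher in MSMs. Trbc2 measured 149.9 and 181.9 CPM in SSMs and 5.09 and 3.37 CPM in MSMs, and Tcrg-C1 measured 43.2 and 42.1 CPM against 1.31 and 0.286 CPM. Windows of 50 bases shared with other genes made up 34.2% of Tcrg-C1.

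Natural killer and cytotoxic genes were higher in SSMs as well. Of 12 members, 11 were called higher in SSMs (10 in all 4 smaller fits), with a median of 6.03 and a summed level of 2338 and 3370 CPM in the SSM libraries and 260.2 and 292 CPM in the MSM libraries. Prf1, which encodes perforin, measured 239 and 318 CPM in SSMs and 2.08 and 1.19 CPM in MSMs (log2 fold change 7.42 ± 0.32, adjusted p = 3.47e-05). Gzmb, a granzyme, measured 512 and 758 CPM against 2.38 and 6.32 CPM (log2 fold change 7.20 ± 0.36, adjusted p = 6.15e-05). Ncr1, the activating receptor NKp46, measured 97.6 and 141 CPM against 1.33 and 2.62 CPM (log2 fold change 5.89 ± 0.35, adjusted p = 7.98e-05). Ifng, which encodes interferon γ, measured 57 and 99.4 CPM against 0.0727 and 1.7 CPM (log2 fold change 6.40 ± 0.57, adjusted p = 0.000355), with 25.9% of its exon length inside a second model on the same strand. Klrk1 did not pass the test, at 244 and 269 CPM against 195 and 217 CPM. Of 12 genes of type 2 innate lymphoid cells, 5 were called higher in SSMs (3 in all 4 smaller fits). Gata3, their lineage factor, measured 47.1 and 59.7 CPM against 1.02 and 1.78 CPM (log2 fold change 5.25 ± 0.23, adjusted p = 3.47e-05), whereas Areg, which encodes amphiregulin, measured 51 and 49.5 CPM against 38.4 and 23.9 CPM and did not pass the test.

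Most mast cell and basophil genes were high in the SSM libraries and at or near 0 in the MSM libraries. Of 16 members, 9 were called higher in SSMs and 1 higher in MSMs, with a median log2 fold change of 9.48 that depends on the fit's handling of genes at or near 0. Cpa3, a carboxypeptidase of mast cell granules, measured 36.1 and 113 CPM in SSMs and 0.0727 and 0.33 CPM in MSMs (log2 fold change 8.42 ± 0.88, adjusted p = 0.000266). Mcpt4, a mast cell protease, measured 36.2 and 115 CPM against 0.121 and 0.066 CPM (log2 fold change 9.59 ± 0.99, adjusted p = 0.000175). Tpsb2, a tryptase, measured 38.4 and 138 CPM against 0.121 and 0.22 CPM (log2 fold change 8.89 ± 1.03, adjusted p = 0.000633). Mcpt8, a protease of basophils, measured 20.4 and 23.8 CPM against 0.0242 and 0 CPM and was at least 319-fold higher in SSMs. The mast cell proteases were higher in SSM pool 2 than in SSM pool 1, whereas Mcpt8 was nearly equal in both. Kit, the stem cell factor receptor, went the other way, at 374 and 269 CPM against 73.1 and 61.6 CPM in MSMs and SSMs (log2 fold change -2.25 ± 0.23, adjusted p = 0.000633). Their summed level was 472 and 919 CPM in the SSM libraries and 409.5 and 312 CPM in the MSM libraries, nearly all of it Kit and Hdc in MSMs, where Fcer1a and Ms4a2, chains of the IgE receptor, were at 0. None of the 10 called members was called in all 4 smaller fits. The number called higher in SSMs was 9 without SSM pool 1, 5 without SSM pool 2, 2 without MSM pool 1 and 1 without MSM pool 2.

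Neutrophil genes were also higher in SSMs where they were called, with large differences between the pools. Of 13 neutrophil genes, 5 were called higher in SSMs (2 in all 4 smaller fits), with a summed level of 821 and 366 CPM in the SSM libraries and 31.6 and 18 CPM in the MSM libraries. S100a8 measured 103 and 46 CPM in SSMs and 0.121 and 0.022 CPM in MSMs (log2 fold change 10.15 ± 1.64, adjusted p = 0.00279). Ngp, a granule protein, measured 185 and 56.6 CPM against 0.145 and 0.022 CPM (log2 fold change 10.66 ± 1.75, adjusted p = 0.00321). Ltf, which encodes lactoferrin, was at 126 and 4.49 CPM against 0.8 and 1.34 CPM and did not pass the test, and it was high in SSM pool 1 alone. Of 9 eosinophil genes, 2 were called higher in SSMs, 4 without SSM pool 1, and 0 without SSM pool 2 or either MSM library. The summed level of the eosinophil list was 68.1 and 279 CPM in the SSM libraries and 73.5 and 75.7 CPM in the MSM libraries, so that SSMs were not above MSMs in pool 1. Alox15 measured 18.3 and 92.5 CPM against 4.65 and 2.86 CPM (log2 fold change 3.67 ± 0.68, adjusted p = 0.00918, lost with edgeR's legacy fit). Prg2, which encodes the major basic protein, measured 0.583 and 53.9 CPM against 0.873 and 0.396 CPM and did not pass the test, with its signal in SSM pool 2. Genes of B cells, lymphatic and stromal cells, red cells and platelets, and epithelial or tumor cells (the last of which include Epcam, a gene of Langerhans cells too) gave 0, 0, 0 and 0 calls higher in SSMs and 2, 0, 0 and 1 higher in MSMs. The calls in MSMs were Blnk and Fcrla of the B cell list and Epcam, the last not called with edgeR's legacy fit or without the filter on low counts. Cd79a, a chain of the B cell receptor complex, was at most at 3.00 CPM in every tdLN library. Plasma cell genes gave 2 calls among 10, Sdc1 (195 and 225 CPM against 10.8 and 4.95 CPM in SSMs and MSMs) and Prdm1 (169.8 and 117 CPM against 37.1 and 31.9 CPM), with Sdc1 alone called in all 4 smaller fits. The 8 immunoglobulin variable genes called higher in SSMs were each high in 1 of the 2 SSM libraries, as Ighv1-82 at 0.0673 and 181 CPM.

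Most genes of antigen presentation on MHC class II were higher in MSMs. CIITA, the master regulator of these genes, acts through a promoter module that holds the X and Y boxes. The promoters of selected members of the list below are printed as RefSeq gives them on GRCm38.p6. Each is the last 130 bases before the annotated start of the transcript, read in the direction of the gene. The capitals mark matches on either strand to AACNGATG, a core of the X box, and to GATTGG, a core of the Y box. H2-DMb1 (chr17:34153061-34153190, + strand), H2-DMb2 (chr17:34145119-34145248, + strand), H2-Eb1 (chr17:34305737-34305866, + strand), H2-Aa (chr17:34287824-34287953, - strand) and H2-Ob (chr17:34238775-34238904, + strand) lie together in the MHC locus.
H2-DMb1: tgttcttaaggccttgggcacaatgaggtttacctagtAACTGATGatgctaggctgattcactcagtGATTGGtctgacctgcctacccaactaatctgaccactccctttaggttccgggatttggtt
H2-DMb2: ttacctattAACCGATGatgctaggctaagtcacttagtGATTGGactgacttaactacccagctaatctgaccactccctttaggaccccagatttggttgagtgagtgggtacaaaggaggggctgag
H2-Eb1: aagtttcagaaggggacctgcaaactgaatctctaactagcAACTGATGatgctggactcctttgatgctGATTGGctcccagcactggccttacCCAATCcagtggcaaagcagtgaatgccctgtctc
H2-Aa: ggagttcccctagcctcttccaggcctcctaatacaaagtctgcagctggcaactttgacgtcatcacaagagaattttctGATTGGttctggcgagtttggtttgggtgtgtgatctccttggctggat
H2-Ob: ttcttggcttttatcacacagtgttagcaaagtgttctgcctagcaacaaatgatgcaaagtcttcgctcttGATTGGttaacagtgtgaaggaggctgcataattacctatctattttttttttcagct

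In H2-DMb1 and H2-DMb2 the first bases of the 2 matches were 30 bases apart, and in H2-Eb1 29 bases apart. Within 250 bases before the start, 8 of the 10 genes of the list that were read held GATTGG and 5 of 10 held AACNGATG. A gene counted if any of its windows matched, which for H2-DMa and GATTGG was not all of them. Ctss, called higher in SSMs, was among the genes with AACNGATG (207 bases before the start) and held no GATTGG. Chromosome 18, on which Cd74 lies, was left out of these counts, and H2-Ab1 and Ciita had no window to read. Over all 32851 promoter windows, the 2 motifs occurred in 14.6% and 1.98%. A match is a run of letters, and binding at these sites was not measured.

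Of 13 genes of the class II pathway, 8 were called higher in MSMs and 1 higher in SSMs (3 in all 4 smaller fits), with a median of -1.04. H2-Ab1, which encodes the β chain of I-A, measured 12022 and 9961 CPM in SSMs and 23585 and 23939 CPM in MSMs (log2 fold change -1.12 ± 0.11, adjusted p = 0.000463). H2-Aa, the α chain of I-A, measured 6980.3 and 6115 CPM against 12192 and 13667 CPM (log2 fold change -0.99 ± 0.15, adjusted p = 0.00307). H2-Eb1 measured 5745 and 4882 CPM against 11107 and 12718 CPM (log2 fold change -1.18 ± 0.15, adjusted p = 0.00148). Cd74, the invariant chain, measured 20778 and 18000 CPM against 34262 and 37653 CPM (log2 fold change -0.90 ± 0.12, adjusted p = 0.00186). Ciita measured 156 and 185 CPM against 333 and 367 CPM (log2 fold change -1.04 ± 0.16, adjusted p = 0.00436). The differences in these genes were near 2-fold. The genes of the peptide-exchange modulator H2-O differed far more. H2-Oa measured 137 and 168 CPM against 6.93 and 8.57 CPM in MSMs and SSMs (log2 fold change -4.30 ± 0.17, adjusted p = 2.97e-05), with 22.8% of its exon length covered by a gene on the opposite strand. H2-Ob measured 278 and 271 CPM against 9.33 and 10.4 CPM (log2 fold change -4.80 ± 0.17, adjusted p = 2.30e-05). H2-DMb2, a chain of the exchange factor H2-M, measured 287 and 235 CPM against 28.4 and 25.3 CPM (log2 fold change -3.28 ± 0.20, adjusted p = 8.32e-05), whereas its neighbor H2-DMb1 measured 1114 and 1160.5 CPM against 849 and 721 CPM and was not called (log2 fold change -0.54 ± 0.13, adjusted p = 0.0267). H2-DMb1 and H2-DMb2 share 22.6% and 25.9% of their windows of 50 bases with other genes, and reads from these stretches may be assigned to either. Ctss, the cathepsin that trims the invariant chain, was higher in SSMs (3325 and 2826 CPM against 1629 and 1566 CPM, log2 fold change 0.94 ± 0.15, adjusted p = 0.00514).

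Of 16 genes of the class I pathway, 6 were called higher in MSMs and 0 higher in SSMs (0 in all 4 smaller fits), with a median of -0.51. The called genes were the peptide transporters Tap1 and Tap2, the immunoproteasome subunits Psmb8 and Psmb9, and the activator genes Psme1 and Psme2, the last with 28.3% of its windows shared with other genes. Psmb9 measured 609 and 793 CPM against 195 and 238 CPM in MSMs and SSMs (log2 fold change -1.70 ± 0.21, adjusted p = 0.00131). Tap1 measured 685 and 689 CPM against 352 and 313 CPM (log2 fold change -1.05 ± 0.13, adjusted p = 0.00148). The class I heavy chain genes H2-K1 and H2-D1 did not pass the test, at 3911 and 3839 CPM against 2854 and 2873 CPM and 6777 and 6529 CPM against 6099 and 5781 CPM in SSMs and MSMs. None of the 31 constitutive proteasome genes was called, with log2 fold changes between -0.74 and 0.08.

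Receptors for IgG were higher in SSMs. Of 19 Fc receptor genes, 5 were called higher in SSMs and 3 higher in MSMs (2 in all 4 smaller fits). Fcgr1, the high-affinity IgG receptor, measured 171 and 144 CPM in SSMs and 14.2 and 7.0 CPM in MSMs (log2 fold change 4.05 ± 0.46, adjusted p = 0.001). Fcgr3 measured 239 and 194 CPM against 39.7 and 25.4 CPM (log2 fold change 2.75 ± 0.23, adjusted p = 0.000262), Fcgr4 measured 46 and 40.4 CPM against 11.1 and 10.3 CPM (log2 fold change 2.01 ± 0.31, adjusted p = 0.00392), and the inhibitory receptor Fcgr2b measured 686 and 624 CPM against 206 and 168 CPM (log2 fold change 1.82 ± 0.22, adjusted p = 0.00132). Fcer1g, which encodes the signaling chain of the activating receptors, measured 1508 and 1449 CPM against 364 and 313 CPM (log2 fold change 2.13 ± 0.22, adjusted p = 0.000599). Fcgrt, the neonatal receptor that recycles IgG, had the opposite direction, at 246 and 296 CPM against 59.7 and 59 CPM in MSMs and SSMs (log2 fold change -2.19 ± 0.19, adjusted p = 0.0003). The remaining calls in MSMs were Fcrla and Fcrlb, intracellular relatives of Fc receptors, with log2 fold changes of -3.62 and -2.17, and the call of Fcrlb was lost with edgeR's legacy fit.

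Complement genes were higher in SSMs at 7 of 23 members and higher in MSMs at 1, Itgax (2 called in all 4 smaller fits). C3, the central component, measured 606 and 431 CPM in SSMs and 87.6 and 49.3 CPM in MSMs (log2 fold change 2.95 ± 0.23, adjusted p = 0.000211). C5ar1 and C3ar1, the receptors of the peptides C5a and C3a, measured 146 and 83.3 CPM against 8.73 and 4.58 CPM and 61.8 and 62.3 CPM against 11.3 and 6.1 CPM, with log2 fold changes of 4.10 and 2.86. C4b measured 50.9 and 49 CPM against 5.87 and 1.36 CPM, but 34.6% of its windows occur in other genes, and its call was lost with edgeR's legacy fit. Of 23 genes of the uptake of dying cells, 6 were called higher in SSMs and 1 higher in MSMs (3 in all 4 smaller fits). Axl, a receptor tyrosine kinase that binds phosphatidylserine through Gas6, measured 285 and 227 CPM against 67.3 and 38.4 CPM (log2 fold change 2.32 ± 0.17, adjusted p = 0.000156). Itgb5 measured 90.2 and 62.4 CPM against 12 and 5.94 CPM (log2 fold change 3.11 ± 0.28, adjusted p = 0.00036). Havcr2, which encodes the receptor TIM-3, was higher in MSMs (486 and 494 CPM against 122 and 96.3 CPM, log2 fold change -2.18 ± 0.15, adjusted p = 0.000136), and Mertk and Timd4 did not pass the test. Among 17 scavenger receptor genes, Msr1 (304 and 183 CPM against 30.3 and 16.1 CPM), Lrp1 (155 and 126 CPM against 28.4 and 24.6 CPM) and Olr1 (39.4 and 37.1 CPM against 10 and 9.09 CPM) were called higher in SSMs. Cd36 and Cxcl16 were called higher in MSMs (171 and 129 CPM against 10.1 and 10.2 CPM and 621 and 768 CPM against 257 and 283 CPM), and Msr1, Lrp1 and Cd36 were called in all 4 smaller fits.

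C-type lectin receptor genes were called in both directions. Of 30 members, 7 were called higher in SSMs and 4 higher in MSMs (4 in all 4 smaller fits). Higher in SSMs were Clec4e, which encodes Mincle (606 and 402 CPM against 32.1 and 21.4 CPM, log2 fold change 4.23 ± 0.33, adjusted p = 0.000219), its partner Clec4d (lost with edgeR's legacy fit), Clec5a, Clec4a1, Clec4a2, Clec4a3 and Clec7a, which encodes Dectin-1 (1693 and 1346 CPM against 674 and 479.5 CPM, log2 fold change 1.40 ± 0.16, adjusted p = 0.00111). Higher in MSMs were Clec9a and Cd207, described above, Ly75, which encodes DEC-205 (176 and 154 CPM against 20.9 and 29.6 CPM, log2 fold change -2.71 ± 0.24, adjusted p = 0.000344), and Cd209d (25.3 and 30.3 CPM against 3.81 and 8.94 CPM). Mrc1, the mannose receptor, measured 108 and 125 CPM against 41.8 and 17.7 CPM in SSMs and MSMs and did not pass the test. Toll-like receptor genes were divided in a similar way. Of 21 genes of these receptors and their partners, 7 were called higher in SSMs and 3 higher in MSMs (3 in all 4 smaller fits). Tlr7, a receptor for single-stranded RNA, measured 69.2 and 52.6 CPM against 5.82 and 4.87 CPM (log2 fold change 3.51 ± 0.38, adjusted p = 0.00081). Tlr2, which recognizes lipoproteins, measured 748 and 492 CPM against 191 and 124 CPM (log2 fold change 1.98 ± 0.21, adjusted p = 0.000662). Tlr3, the receptor for double-stranded RNA, measured 133 and 155 CPM against 11.1 and 6.97 CPM in MSMs and SSMs (log2 fold change -4.02 ± 0.28, adjusted p = 0.000133). Tlr11, a receptor for profilin, measured 98.7 and 120.5 CPM against 3.09 and 6.42 CPM (log2 fold change -4.53 ± 0.33, adjusted p = 0.000166), and its partner Tlr12 had a log2 fold change of -2.02. Tlr9, Myd88 and Ticam1 did not pass the test.

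The called cathepsin genes were higher in SSMs, and the inhibitor in the list was higher in MSMs. Of 16 members, 8 were called higher in SSMs and 1 higher in MSMs (4 in all 4 smaller fits). Ctsc measured 3204 and 2567 CPM in SSMs and 927 and 729.8 CPM in MSMs (log2 fold change 1.80 ± 0.13, adjusted p = 0.000178), Ctsb measured 2300.4 and 1999 CPM against 1246 and 1029.9 CPM (log2 fold change 0.92 ± 0.10, adjusted p = 0.000691). Ctsd measured 267 and 262 CPM against 82.6 and 54.9 CPM (log2 fold change 1.94 ± 0.28, adjusted p = 0.00303). Of the Ctsd exon length, 34.4% lies inside a second model on the same strand. Ctsw, which is expressed by cytotoxic lymphocytes, measured 165 and 204 CPM against 3.71 and 4.93 CPM (log2 fold change 5.41 ± 0.24, adjusted p = 3.47e-05). Cst3, the secreted inhibitor cystatin C, was higher in MSMs, at 10851 and 13281 CPM against 1080.5 and 1440.5 CPM in MSMs and SSMs (log2 fold change -3.26 ± 0.18, adjusted p = 6.29e-05). The other lysosomal genes had no common direction, with 6 of 33 called higher in SSMs and 5 higher in MSMs (2 in all 4 smaller fits) and a median of 0.19. Lamp1 and Lamp2, genes of the lysosomal membrane, were higher in SSMs, with log2 fold changes of 0.96 and 1.20. Ppt1, a thioesterase that removes lipids from proteins, measured 3809 and 4281 CPM against 525 and 406 CPM in MSMs and SSMs (log2 fold change -3.14 ± 0.15, adjusted p = 4.76e-05), and the sugar hydrolases Man2b1 and Fuca1 were higher in MSMs, with log2 fold changes of -1.08 and -1.70. Of 20 genes of the vacuolar proton pump, 1 was called in each direction and neither in all 4 smaller fits. Among 39 genes of membrane traffic, 3 were called higher in SSMs and 7 higher in MSMs (2 in all 4 smaller fits). Rab7b, of the route from endosomes to the Golgi, measured 736 and 868 CPM against 246 and 186 CPM (log2 fold change -1.91 ± 0.17, adjusted p = 0.000385). Rab43, a Golgi gene, measured 54 and 60 CPM against 16.8 and 17.2 CPM, with 75.3% of its exon length inside a second model on the same strand.

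The interferon-stimulated genes that were called were all higher in SSMs, with 8 of 28 called in this direction and 0 in the other, and a median of 1.70. Ifitm3, a restriction factor of virus entry, measured 1515 and 1515 CPM in SSMs and 294 and 305 CPM in MSMs (log2 fold change 2.34 ± 0.40, adjusted p = 0.00621). Oasl2 and Oas3, of the oligoadenylate synthetase family, measured 402 and 344 CPM against 64.5 and 46 CPM and 119 and 126 CPM against 16.3 and 17.8 CPM, with log2 fold changes of 2.80 and 2.86. Igtp, a GTPase induced by interferon γ, measured 153 and 155 CPM against 21.7 and 24.9 CPM (log2 fold change 2.72 ± 0.24, adjusted p = 0.000328) and was the member called in all 4 smaller fits. Cxcl10 measured 300.1 and 268 CPM against 52.7 and 63.6 CPM (log2 fold change 2.25 ± 0.42, adjusted p = 0.00927), and lost its call without the pool term and without the filter on low counts. Cxcl9 was at 72.2 and 53.8 CPM against 128 and 157 CPM and did not pass the test. Irf7 and Isg15 were separate between the groups, at 1471 and 1461 CPM against 423 and 479 CPM and 344 and 362 CPM against 83.9 and 125 CPM, and did not pass the adjusted threshold.

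Cytokine genes were higher in SSMs at 11 of 34 members and higher in MSMs at 1, Il12b (3 called in all 4 smaller fits). Il22, a cytokine of innate lymphocytes, measured 85 and 58.6 CPM in SSMs and 0 and 0.044 CPM in MSMs and was at least 1034-fold higher in SSMs. Of the Il22 windows of 50 bases, 41% occur in other genes. Csf2, which encodes GM-CSF, measured 6.93 and 11.2 CPM against 0 and 0.022 CPM. Il1rn, the antagonist of the interleukin 1 receptor, measured 1137 and 819.5 CPM against 286 and 211 CPM (log2 fold change 1.97 ± 0.22, adjusted p = 0.000905). Tgfb1 measured 273 and 259 CPM against 113 and 113 CPM (log2 fold change 1.23 ± 0.17, adjusted p = 0.00261). Il1b was high in both subsets, at 6856 and 5728 CPM against 3874 and 3816 CPM, and did not pass the test, nor did Il10 at 5.94 and 6.14 CPM against 4.07 and 5.68 CPM or Il18 at 68.1 and 63.3 CPM against 41.9 and 47.7 CPM. The genes of the inflammasome and of the interleukin 1 family gave 5 of 22 calls in SSMs and 0 in MSMs. Besides Il1a and Il1rn these were the receptor genes Il1r1, Il18r1 and Il18rap, and the last 2 were called in all 4 smaller fits (39.6 and 49.6 CPM against 0.703 and 0.881 CPM and 104 and 117 CPM against 4.73 and 5.35 CPM).

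Chemokine receptor genes were called higher in SSMs at 14 of 26 members and higher in MSMs at 4 (9 in all 4 smaller fits). Among those higher in SSMs were Ccr1 (131 and 92.9 CPM against 7.97 and 6.98 CPM, log2 fold change 3.90 ± 0.30, adjusted p = 0.000195) and S1pr1, the receptor for sphingosine-1-phosphate in lymph and blood (59.7 and 85.8 CPM against 8.75 and 6.67 CPM, log2 fold change 3.21 ± 0.27, adjusted p = 0.000291). Those higher in MSMs were Xcr1, Ccr7, Ccr9 and Cxcr3 (39 and 53.1 CPM against 16.5 and 17.1 CPM). Of 33 chemokine genes, 7 were called higher in SSMs and 3 higher in MSMs, and Ccl22 was the member called in all 4 smaller fits. Xcl1, the ligand of Xcr1, was high on the side opposite to its receptor, at 83.1 and 132 CPM against 1.53 and 6.41 CPM in SSMs and MSMs (log2 fold change 4.75 ± 0.47, adjusted p = 0.000566). Cxcl2, which attracts neutrophils, measured 497 and 353 CPM against 119 and 120.5 CPM (log2 fold change 1.81 ± 0.18, adjusted p = 0.000521), and Ccl3, Ccl4 and Ccl5 did not pass the test. In the tumor necrosis factor families, 12 of 26 genes were called higher in SSMs and 2 higher in MSMs (6 in all 4 smaller fits). Tnfsf11, which encodes RANKL, measured 61.7 and 42 CPM against 0.921 and 0.66 CPM (log2 fold change 6.06 ± 0.51, adjusted p = 0.000292), opposite to the direction of its receptor gene Tnfrsf11a given above. Ltb and Lta, which encode lymphotoxins, were higher in SSMs, with log2 fold changes of 1.95 and 2.99.

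Integrin genes were called higher in SSMs at 6 of 25 members and higher in MSMs at 4 (4 in all 4 smaller fits). Itgal, the α chain of LFA-1, measured 469 and 417 CPM against 140.3 and 135 CPM (log2 fold change 1.69 ± 0.15, adjusted p = 0.000322). Itgae, the CD103 of cDC1, measured 301 and 321 CPM against 101 and 104 CPM in MSMs and SSMs (log2 fold change -1.60 ± 0.13, adjusted p = 0.000227). Genes of matrix proteases gave 3 calls in SSMs and 4 in MSMs among 22. Mmp14, a membrane-bound collagenase, measured 307 and 224 CPM against 86.7 and 48.8 CPM (log2 fold change 1.99 ± 0.23, adjusted p = 0.000951). Adam8 and Adam19 measured 963 and 1042 CPM against 175 and 199 CPM and 147 and 145 CPM against 10.4 and 20.2 CPM in MSMs and SSMs, with log2 fold changes of -2.42 and -3.29, and Mmp12, the macrophage elastase, measured 50.1 and 37 CPM against 2.2 and 1.19 CPM. Mmp8, Adam8 and Adam19 were called in all 4 smaller fits. Of 36 lineage transcription factors, 15 were called higher in SSMs and 5 higher in MSMs (8 in all 4 smaller fits). Cebpb measured 1185 and 1107 CPM in SSMs and 145 and 94.5 CPM in MSMs (log2 fold change 3.27 ± 0.20, adjusted p = 9.35e-05), with 20.7% of its exon length covered by a gene on the opposite strand. Zeb2 measured 229 and 164 CPM against 61.4 and 44.1 CPM (log2 fold change 1.90 ± 0.18, adjusted p = 0.000471), and Id2, a factor of cDC1 and innate lymphocytes, was higher in MSMs (1369.5 and 2012 CPM against 531 and 779 CPM, log2 fold change -1.37 ± 0.19, adjusted p = 0.00229).

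Genes of the cell cycle were higher in MSMs. Of 26 members, 16 were called higher in MSMs and 0 higher in SSMs, all 26 had negative log2 fold changes, and the median was -1.66. Cdk1 measured 43.7 and 41.9 CPM against 9.01 and 5.36 CPM in MSMs and SSMs (log2 fold change -2.57 ± 0.27, adjusted p = 0.000702), Mki67 measured 59.6 and 67.1 CPM against 20.9 and 14.5 CPM (log2 fold change -1.85 ± 0.24, adjusted p = 0.00165). Tyms measured 45.9 and 41.7 CPM against 9.08 and 8.6 CPM (log2 fold change -2.31 ± 0.18, adjusted p = 0.000225). Tyms was the member called in all 4 smaller fits. Immediate early genes, many of which respond to tissue dissociation, gave 3 calls in SSMs and 2 in MSMs among 23, none of them in all 4 smaller fits. Fos measured 2873 and 3167 CPM against 2323 and 2591 CPM in SSMs and MSMs and did not pass the test.

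Metabolic genes were called in both directions. Over all genes tested, 8.69% were called, and 18.3% of those over the mean count. Among iron and heme genes, Fth1, the ferritin heavy chain (10620 and 9332 CPM against 4208 and 3949.7 CPM, log2 fold change 1.29 ± 0.14, adjusted p = 0.000744), Hmox1, heme oxygenase (199.6 and 192 CPM against 52.8 and 46.6 CPM, log2 fold change 1.98 ± 0.18, adjusted p = 0.000391), Slc11a1 and Spic were called higher in SSMs, 4 of 16 in all. Among 20 lipid genes tested, Apoe (934 and 643 CPM against 229.8 and 199 CPM, log2 fold change 1.87 ± 0.21, adjusted p = 0.000914), the cholesterol exporter Abca1 (53.7 and 55.8 CPM against 10.3 and 9.18 CPM), Plin2 and Nr1h3 were called higher in SSMs and Cd36 was called higher in MSMs. The 19 cholesterol synthesis genes tested gave 1 call in SSMs and 2 in MSMs, Idi1 (25.3% of its windows shared) and Srebf2, which encodes the factor that drives the pathway (319 and 366 CPM against 112 and 112 CPM, log2 fold change -1.61 ± 0.15, adjusted p = 0.000389). Among glycolysis genes, 4 of 21 were called higher in SSMs and 3 higher in MSMs. Slc16a3, a lactate exporter, measured 414 and 332 CPM against 64.9 and 39.2 CPM (log2 fold change 2.86 ± 0.26, adjusted p = 0.000414). Pfkp measured 614 and 577 CPM against 291 and 286 CPM in MSMs and SSMs (log2 fold change -1.04 ± 0.13, adjusted p = 0.00164). The eicosanoid genes Alox5, Alox15, Pla2g7 and Pla2g4a were called higher in SSMs, 4 of 16, with Pla2g7 at 774 and 664 CPM against 137 and 118 CPM (log2 fold change 2.49 ± 0.24, adjusted p = 0.000521). Ahr, the aryl hydrocarbon receptor, and Kmo and Haao, enzymes of the kynurenine pathway, were higher in MSMs, with log2 fold changes of -1.16, -1.58 and -1.76, and Tph1 was the 1 of 16 genes of tryptophan use and this receptor called higher in SSMs. Of 19 genes often used to describe macrophage polarization, 6 were called higher in SSMs and 0 higher in MSMs. These included Vegfa (557 and 454 CPM against 150.3 and 82.4 CPM, log2 fold change 2.13 ± 0.28, adjusted p = 0.0018) and Socs3 (638 and 568 CPM against 248 and 207 CPM), whereas Arg1, at 0.807 and 2.27 CPM against 0.17 and 0 CPM, did not pass the test, and Nos2 was at most at 0.459 CPM in the tdLN libraries. Over these 7 lists, Cd36 and Chil3 were the members called in all 4 smaller fits.

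Ranked by fitted fold change, which for genes at 0 in MSMs depends on how the fit treats zeros, the 12 largest rises in SSMs held genes of the innate lymphoid and mast cell lists together with genes of other functions. Mcpt1, a mast cell protease, measured 17.3 and 31.2 CPM in SSMs and 0 and 0 CPM in MSMs and was at least 349.8-fold higher in SSMs. Tph1, the enzyme that makes serotonin in mast cells, measured 7.17 and 16.6 CPM against 0 and 0 CPM, which is at least 171-fold. Prss12 measured 11.6 and 14.2 CPM against 0 and 0 CPM, Bmp7, a growth factor of the BMP family, measured 10.5 and 8.83 CPM against 0 and 0 CPM, and Gata2, a factor of mast cells and basophils, measured 19.5 and 34 CPM against 0.0242 and 0 CPM. The others were Ppp1r14c, Tpbgl, Il22, Adgrg3, Il17a, Lingo4 and Ngp. Mcpt1 was not called by DESeq2's Wald test, and Tpbgl, Adgrg3, Il17a and Lingo4 were not called with the mean count taken over the tdLN libraries alone. Il17a was not called with edgeR's legacy fit either. The 12 largest rises in MSMs were led by Trabd2b (9.02 and 11.2 CPM against 0 and 0 CPM in MSMs and SSMs, at least 149-fold) and Adgra2 (15.8 and 12.2 CPM against 0.0224 and 0.0459 CPM, at least 205-fold). Gpr141b measured 277 and 316 CPM against 0.942 and 2.89 CPM (log2 fold change -7.28 ± 0.39, adjusted p = 6.29e-05), Snx22 measured 77.7 and 112 CPM against 0.381 and 1.72 CPM (log2 fold change -6.50 ± 0.45, adjusted p = 0.000136), and P3h2, Fndc5, Akr1b8, Pianp and Ppp1r14a had log2 fold changes between -7.06 and -6.17. Clec9a, Cadm1 and Gcsam of the cDC1 list were among the 12. Genes on the opposite strand cover 28.5% of the exon length of Snx22, 28.4% of P3h2, 38.6% of Tpbgl and 29.2% of Ppp1r14c, and their reads cannot be told apart if strand was not used in counting.

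Per kilobase of exon, the most abundant of the genes higher in SSMs by a log2 fold change over 1 was Lyz2, at 12249 CPM per kilobase in SSMs and 3092.5 in MSMs, followed by Fth1, Ifitm3, Fcer1g, Ifi27l2a, Plac8, Ly6e, Cd14, Cebpb and Gzma. Ifi27l2a, an interferon-induced gene, measured 776 and 736 CPM against 116 and 129 CPM (log2 fold change 2.61 ± 0.41, adjusted p = 0.00438). Plac8 measured 1534 and 1666 CPM against 197 and 218 CPM (log2 fold change 2.94 ± 0.39, adjusted p = 0.00186). Among the genes higher in MSMs the first was Tmsb4x, which encodes the actin-binding thymosin β4, at 18369 CPM per kilobase in MSMs and 7421 in SSMs (22301 and 28067 CPM against 9355 and 10994 CPM in MSMs and SSMs, log2 fold change -1.31 ± 0.13, adjusted p = 0.0006). Those that followed included Cst3, H2-Ab1, H2-Eb1, Atox1, S100a11 (41.1% of its windows of 50 bases shared with other genes), Cd83, Plbd1 and Ppt1. Cd83, a surface marker of mature dendritic cells, measured 3324 and 3019.5 CPM against 1277 and 1199 CPM (log2 fold change -1.36 ± 0.18, adjusted p = 0.00174).

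Whether the subset difference was particular to the draining node was tested as an interaction of subset and node type over all 8 libraries. At 8 genes, 0.0379% of the 21085 tested, the SSM minus MSM difference in tdLN differed from that in ndLN, and 2600 genes had an unadjusted p under 0.05. At 7 of these genes SSMs were below MSMs in both node types, by less in tdLN than in ndLN. H2-Ab1 (chr17:34257689-34269419 in GENCODE on GRCm38) measured 2770.1 and 2121 CPM in SSMs and 31880 and 27318 CPM in MSMs in ndLN, against the tdLN values given above, so that its log2 fold change was -3.60 in ndLN and -1.12 in tdLN (difference 2.48 ± 0.15, adjusted p = 0.00812). Cd74 measured 5436 and 4253 CPM in SSMs and 47633 and 39918 CPM in MSMs in ndLN (difference 2.28 ± 0.17, adjusted p = 0.00854), and H2-DMb1 (chr17:34153072-34160230) measured 160.4 and 135 CPM in SSMs and 1419.7 and 1086 CPM in MSMs in ndLN (difference 2.53 ± 0.19, adjusted p = 0.00854). At these 3 genes the SSM libraries were more than 3 times higher in tdLN than in ndLN, while the MSM libraries of the 2 node types lay much closer together. H2-Eb1 and H2-Aa had differences of nearly the same size (2.31 ± 0.21, adjusted p = 0.0114, and 2.23 ± 0.21, adjusted p = 0.0121) just outside the threshold. For H2-Oa and H2-Ob the differences were 0.17 ± 0.23, adjusted p = 0.901, and 0.58 ± 0.22, adjusted p = 0.317, and did not pass the test. Over the class II list, 12 of 13 members were called higher in MSMs in ndLN against 8 in tdLN, and the median log2 fold changes were -3.18 and -1.04.

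The other 5 genes are of different functions. Kmo, which makes 3-hydroxykynurenine from kynurenine, measured 62.9 and 69.3 CPM in SSMs and 207 and 189 CPM in MSMs in tdLN and 6.75 and 6.97 CPM in SSMs and 135 and 129.9 CPM in MSMs in ndLN (difference 2.69 ± 0.22, adjusted p = 0.00947). Htr7, a serotonin receptor, measured 52 and 40.2 CPM in SSMs and 206 and 193 CPM in MSMs in tdLN and 7.04 and 4.55 CPM in SSMs and 215 and 175 CPM in MSMs in ndLN (difference 2.95 ± 0.24, adjusted p = 0.00947). Plbd1, a phospholipase B-like gene, measured 1214 and 1082 CPM against 3108 and 3052 CPM in tdLN and 352 and 274 CPM in SSMs and 4356 and 3552 CPM in MSMs in ndLN (difference 2.23 ± 0.16, adjusted p = 0.00854). Fgd2, an exchange factor for Cdc42 found in antigen-presenting cells, measured 137 and 115 CPM against 508 and 479 CPM in tdLN and 39 and 35.5 CPM in SSMs and 724 and 582 CPM in MSMs in ndLN (difference 2.15 ± 0.18, adjusted p = 0.00947). Tnfrsf9, which encodes the costimulatory receptor 4-1BB, was the 1 gene in the other direction, higher in SSMs in both node types and by less in tdLN. It measured 175 and 195 CPM in SSMs and 70.9 and 76.7 CPM in MSMs in tdLN and 469 and 614 CPM in SSMs and 37.4 and 48.1 CPM in MSMs in ndLN (difference -2.34 ± 0.19, adjusted p = 0.00947). All 8 genes lost their call when any 1 of the tdLN libraries was left out, with adjusted p between 0.0255 and 0.162, although the differences themselves kept their direction.

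**Figure D4:**
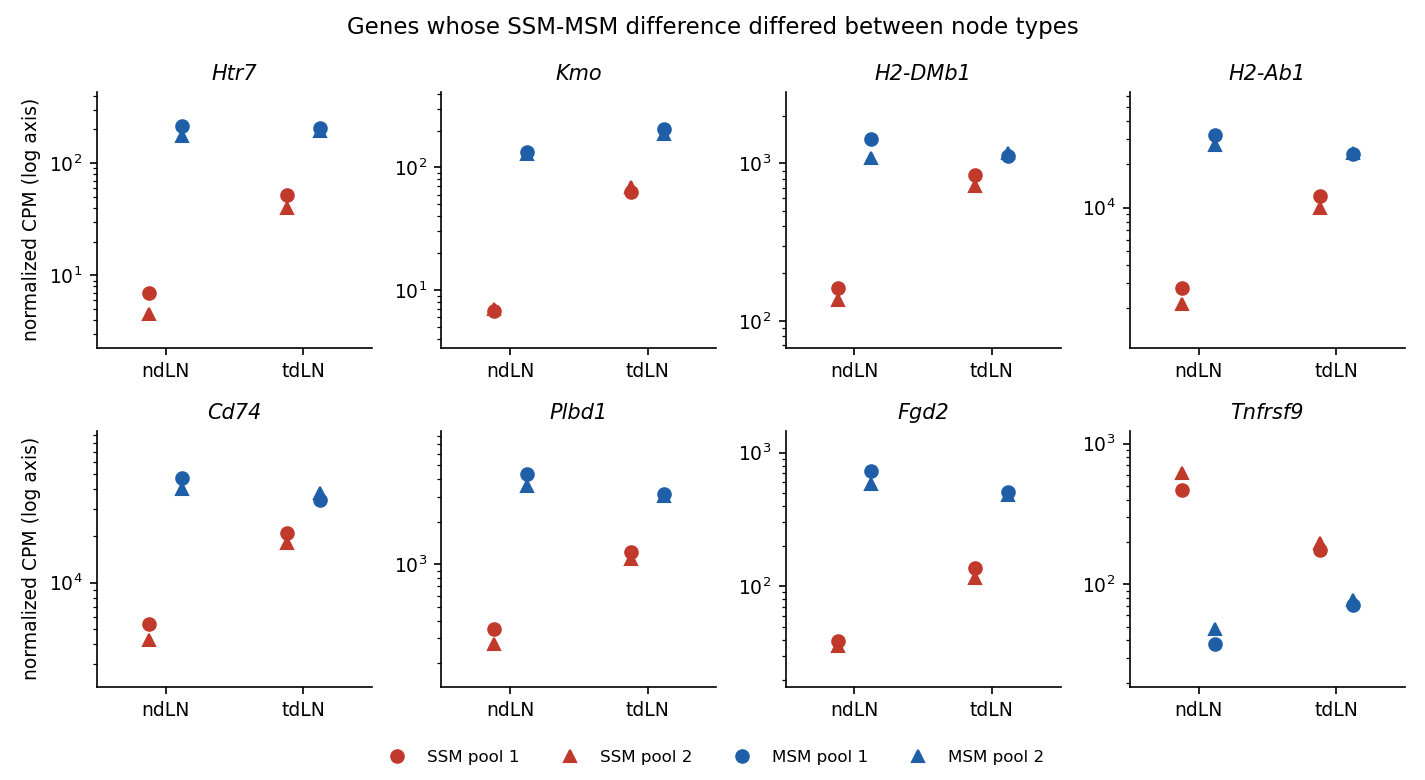
Level of the 8 genes with a significant interaction in each library of ndLN and tdLN in normalized CPM (log axis), with SSMs in red, MSMs in blue, pool 1 as circles and pool 2 as triangles. In 7 panels the red points rise toward the blue points from ndLN to tdLN, and for Tnfrsf9 the red points fall toward the blue ones.

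No other list held a gene with a significant interaction except those that contain Kmo and Tnfrsf9. Set side by side, the cDC1 list had 9 of 10 members called higher in MSMs in ndLN and 10 in tdLN, with medians of -4.91 and -4.04. For the innate-like lymphoid list, 14 and 14 of 14 were called higher in SSMs in ndLN and tdLN, with medians of 5.06 and 5.30. The macrophage list had 4 and 6 of 12 members called higher in SSMs in ndLN and tdLN and 2 and 0 higher in MSMs. Genes of cathepsins were called higher in SSMs at 4 of 16 members in ndLN and 8 in tdLN, and Toll-like receptor genes at 2 and 7 of 21. For none of these 5 lists did the interaction test call a member, and a difference between the node types is not shown by the counts.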

How the data were processed

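RNA of sorted cells was made into cDNA with the SMART-Seq v4 kit, and the authors aligned the reads to mm10 (GRCm38) with STAR (2.5.3a per the labels, with Trimmomatic 0.36 and bcl2fastq 2.20.0.422). They deposited raw counts per gene, not normalized, for 16 samples. The study's methods speak of 4 pools, whereas the labels name pools 1 and 2, each on lanes 3 and 4, and the labels were followed. The counts came from the STAR workflow, whose counting mode, strand setting and annotation release are not given in the sources used here. Gene symbols, lengths and positions were taken from GENCODE M21, which held 55240 of the 55423 row identifiers. Genes with at least 10 counts in total and counts in at least 2 samples were tested (21085). The 8 libraries were fitted in edgeR 4.0.16 (R 4.3.3) with TMM, group and pool, and tested with quasi-likelihood tests, for SSM against MSM in tdLN and for the interaction with node type. The study used DESeq2's likelihood ratio test with Holm adjustment on the 16 samples. Here the lanes were summed because they are not replicates. On simulated counts for SSM against MSM in tdLN (21085 genes), 190 of 200 genes changed 4-fold were called, with 1 false call, and 0 were called without any change. The simulated spread was a set function of the mean count, the same for every gene, with no effect of pool. The simulation therefore checks that the code runs as meant and does not give the error rate in the real counts.

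Pairing by pool comes from the labels, which name the same source nodes for the SSM and MSM libraries of a number. Deviations of same-numbered libraries correlated with r = 0.15 over 10000 genes. A group at or under 3 counts in both libraries was set to that floor (at most 0.0727 CPM), and such folds are lower bounds for counting error only. Genes were named by a rule: gate and marker genes, the 12 largest changes each way (without immunoglobulin, T cell receptor and unnamed genes), the 10 most abundant each way, up to 4 called members of each list each way, and the interaction genes. Members that were not called, and further called members, were picked for the text with their values in view. The lists, the markers and the comparison itself were chosen with earlier results of these data known. No list was tested for enrichment. A few members counted in the lists are not reported here by name. Sequence shared between genes was computed over windows of 50 bases for 328 genes. DESeq2 1.42.0 was run as an alternative. Figures were drawn with matplotlib 3.10.9.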

Additional observations from a re-analysis of the deposited data

Results flagged for a closer look

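For 8 genes the SSM minus MSM difference differed between tdLN and ndLN by the interaction test in edgeR, which is what marks them here. The difference of the log2 differences was 2.95 for Htr7, 2.69 for Kmo, 2.53 for H2-DMb1, 2.48 for H2-Ab1, 2.28 for Cd74, 2.23 for Plbd1, 2.15 for Fgd2 and -2.34 for Tnfrsf9. The direction of each was the same in both pools. Over the 14 alternatives to which the interaction could be fitted, H2-Ab1, Cd74, H2-DMb1 and Plbd1 were called in 10, Kmo and Fgd2 in 9, and Htr7 and Tnfrsf9 in 8. The alternatives without a call included all 4 that leave out 1 tdLN library. The value of H2-Ab1 lay between 2.33 and 2.64 over all 14, and that of Tnfrsf9 between -2.43 and -2.24.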

How the results depend on the processing

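The counts of genes called moved by over 1.5 times with the threshold, the test and the libraries included. Leaving out 1 of the 4 tdLN libraries, with the lone library assumed to vary like the other groups, gave between 507 and 719 genes called, between 300 and 436 higher in SSMs, between 153 and 283 higher in MSMs, and 0 by the interaction test in edgeR, with between 1695 and 2004 genes at an unadjusted p under 0.05. A DESeq2 Wald test gave 2989 genes called, 1650 higher in SSMs, 1339 higher in MSMs and 677 by the interaction. An adjusted p of 0.05 gave 3023, 1647, 1376 and 215. The interaction called 4 genes with DESeq2's size factors, 25 with lane 3 alone and 29 with lane 4 alone. The model without the replicate block, which drops the pairing by pool, called 2019 genes (1776 of them shared with the paired model) and 11 by the interaction. All other alternatives kept each count within 1.5 times. Of these, the fit of the 4 tdLN libraries alone with pool called 1836 genes, 1573 of them shared with the main fit. Among the log2 fold changes of 44 named genes, none reversed under any of the 16 alternatives. Where all 4 tdLN libraries were kept, 521 of the values so obtained stayed on their side of the adjusted p threshold and 7 did not. With a library left out, more of the values crossed it than stayed on their side. These numbers disregard the mean count, by which Tpbgl, Adgrg3, Il17a and Lingo4 also lost their call, as given above. The list members Zbtb16, Ccl1 and Ikzf2 lost theirs in the same way. DESeq2's size factors moved the median of all genes by 0.0167. With 2 pools a side, the precision is set by the number of pools and not by depth.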
